A study of Mus musculus with 27 samples.

Results

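Liver of mice with carbon tetrachloride (CCl4) fibrosis that also received Sargassum japonica, a brown seaweed given as an extract, was compared with liver of healthy mice, to see which transcripts still differed from healthy tissue under the extract. The groups were set by the sample labels alone, and the comparison rests on 6 of the 27 libraries of the series, 3 of each group. Among the 25859 genes listed for liver, 15078 held enough reads to be tested. A further group, 3 libraries of CCl4 liver without the extract, shared the estimate of the spread in the fit, and its values stand beside the others. The extract-treated mice carried the CCl4 injury as well, so the comparison holds the injury and the extract together. For these mice the labels give no dose, route, duration, strain, sex or age, and they name no vehicle for the healthy group, so the effect of a vehicle or of handling cannot be told apart from that of CCl4 with the extract. Nor do they tie each library to its own mouse, and if libraries of a group shared one, the p-values would reflect only technical spread.

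CCl4 is turned into a toxic radical by the cytochrome Cyp2e1 of hepatocytes around the central vein. Hepatocytes that survive divide to replace those lost, stellate cells turn into myofibroblasts that lay down collagen, and macrophages from blood monocytes gather along the scar. During this response hepatocytes lower many of their metabolic genes, and in male mice the genes held up by the pulsed release of growth hormone are among the most sensitive.

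Levels are given as CPM, reads scaled per M (10 to the power of 6) reads of effective library size, with the 3 libraries of a group always in the order of their replicate numbers. Where a gene is given as 1 set of levels against another, the healthy libraries come first and the extract-treated ones second. Differences are limma estimates ± SE on the log2 scale, extract-treated minus healthy unless stated, and carry a two-sided p adjusted by Benjamini-Hochberg over all 15078 genes. A gene was called higher or lower at an adjusted p under 0.05. It was counted as over 2-fold when limma's test against a log2 difference of 1 also passed, and as within 2-fold when the 95% confidence interval lay wholly between -1 and 1.

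The 9 libraries held 45.1 to 64.8 M reads, from 45.1 to 64.8 M in the healthy group and from 48.0 to 58.2 M in the extract-treated group. The scaling factors that the authors applied lay between 0.854 and 0.923 for healthy and near 0.98 for extract-treated libraries. The 10 most abundant genes took 19.1 to 21.1% of the reads of healthy and 22.9 to 24.8% of those of extract-treated libraries. Libraries of 1 group differed by far more than read sampling, with a chi-square per degree of freedom of 28.3 to 115. The labelled tissue was borne out by its defining markers, with Alb (albumin) at 93781, 83991 and 97180.0 CPM in healthy and 112640.0, 100620.0 and 93230.0 CPM in extract-treated liver, and the 4 Y-linked genes tested were read in all 9 libraries, where Xist, 0.158, 0.192 and 0.221 CPM in healthy and 0.0425, 0.140 and 0.329 CPM in extract-treated liver, was low. On the first principal component of all tested genes, which held 71.2% of the variance, the healthy libraries lay between -89.6 and -78.3, the extract-treated ones between 13.7 and 24.6 and the CCl4 libraries between 51.7 and 80.4. On the second, which held 9.37%, the extract-treated libraries stood alone below 0, between -37.0 and -27.7.

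Extract-treated liver differed from healthy liver in 5214 genes, 34.6% of those tested. Of these 3169 (21% of the tested genes) were higher and 2045 (13.6%) lower. The difference was over 2-fold in 613 genes (4.07%), of which 533 were higher and 80 lower. By contrast 9988 genes (66.2%) lay within 2-fold of healthy liver, 2085 of them with a small but called difference. For 1961 genes the libraries settled neither. The 3 healthy and 3 extract-treated libraries did not overlap in 7553 genes (50.1%). The same fit called 8128 genes between CCl4 and healthy liver. The balance of directions depended on the scaling. With library size alone the median difference of all genes moved from -0.01 to 0.13, and 3810 genes were called higher and 839 lower. The lower calls also depended on the libraries used, being 1107, 1277 and 1301 without extract-treated replicate 1, 2 or 3. Without healthy replicate 1, 2 or 3 they were 1639, 1836 and 1952. In whole tissue, fewer cells of a type and less RNA per cell cannot be told apart, which holds for every result that follows.

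**Figure D1:**
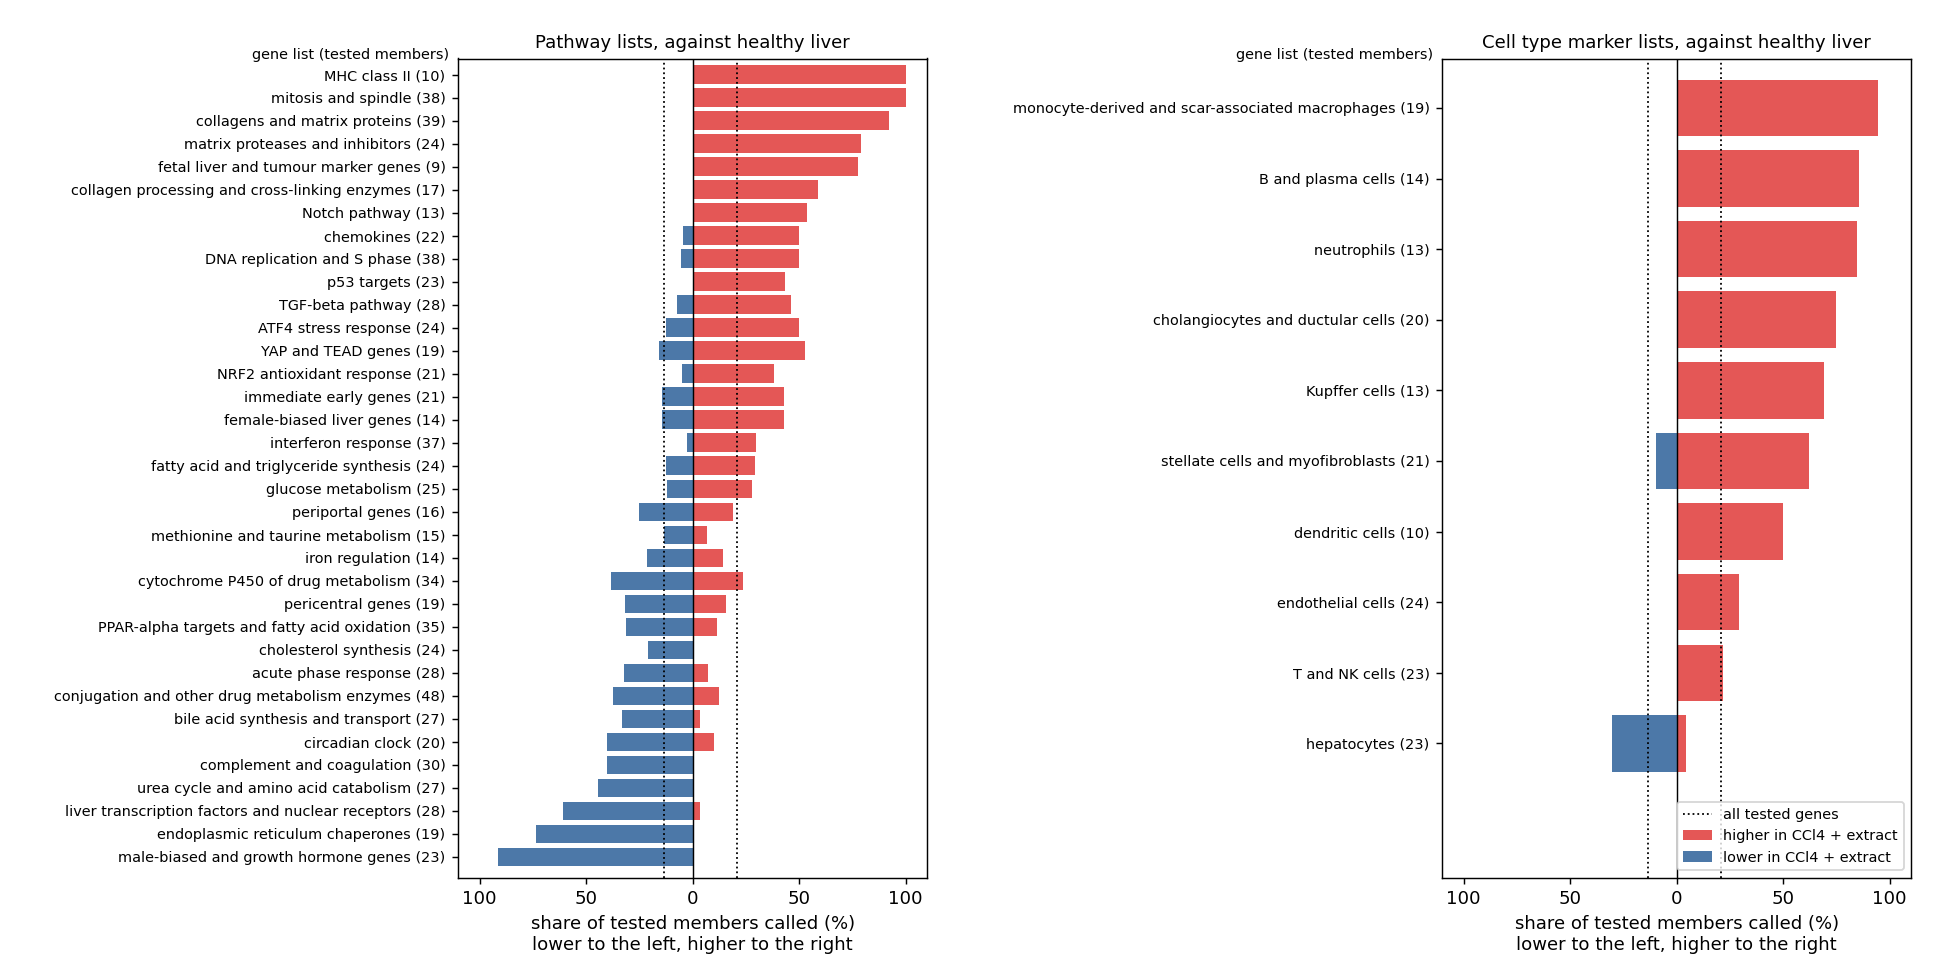
Share of the tested members of each gene list called lower (left, blue) or higher (right, red) in extract-treated CCl4 liver than in healthy liver, in percent, with the number of tested members in brackets, for lists with at least 9 tested members. Dotted lines mark the shares over all tested genes (13.6% lower and 21% higher). Matrix, mitosis, MHC class II and macrophage lists reach far to the right, and male-biased genes and endoplasmic reticulum chaperones far to the left.

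Matrix genes of the scar still stood above healthy liver. Of 39 collagen and other matrix genes 36 were higher and none lower, 22 of them by over 2-fold, and the median difference of the list was 1.88 against -0.01 over all genes. The same list had a median of 2.54 in CCl4 liver, a comparison that shares the healthy libraries. Col1a1 (chr11:94936224-94953042), which encodes the main chain of type I collagen, was at 3.23, 5.63 and 3.04 CPM in healthy liver and 98.6, 76.4 and 67.3 CPM in extract-treated liver, with 284, 184 and 366 CPM under CCl4 alone. All 3 extract-treated libraries lay above the healthy and below the CCl4 range, at a difference from healthy of 4.38 ± 0.26 (adjusted p = 5.6e-07). Col3a1 (chr1:45311538-45349706), the type III chain of the same fibrils, stood at 15.4, 20 and 15.1 CPM against 213, 179 and 175 CPM (3.50 ± 0.18, adjusted p = 1.4e-07). Col6a3, of the beaded type VI filaments, stood at 6.98, 8.51 and 5.90 CPM against 54.6, 41.5 and 49.3 CPM (2.77 ± 0.16). Lum, the proteoglycan lumican that spaces collagen fibrils, was at 6.33, 8.92 and 6.89 CPM in healthy, 66.6, 48.01 and 65.7 CPM in extract-treated and 59.6, 69.02 and 74.6 CPM in CCl4 liver. Its extract-treated libraries overlapped the CCl4 range, and the difference from healthy was 3.02 ± 0.16 (adjusted p = 1.7e-07). The members not called were Fn1, fibronectin, which hepatocytes secrete in bulk (-0.23 ± 0.15), Col18a1 (-0.13 ± 0.15) and Col5a3 (0.25 ± 0.14).

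**Figure D2:**
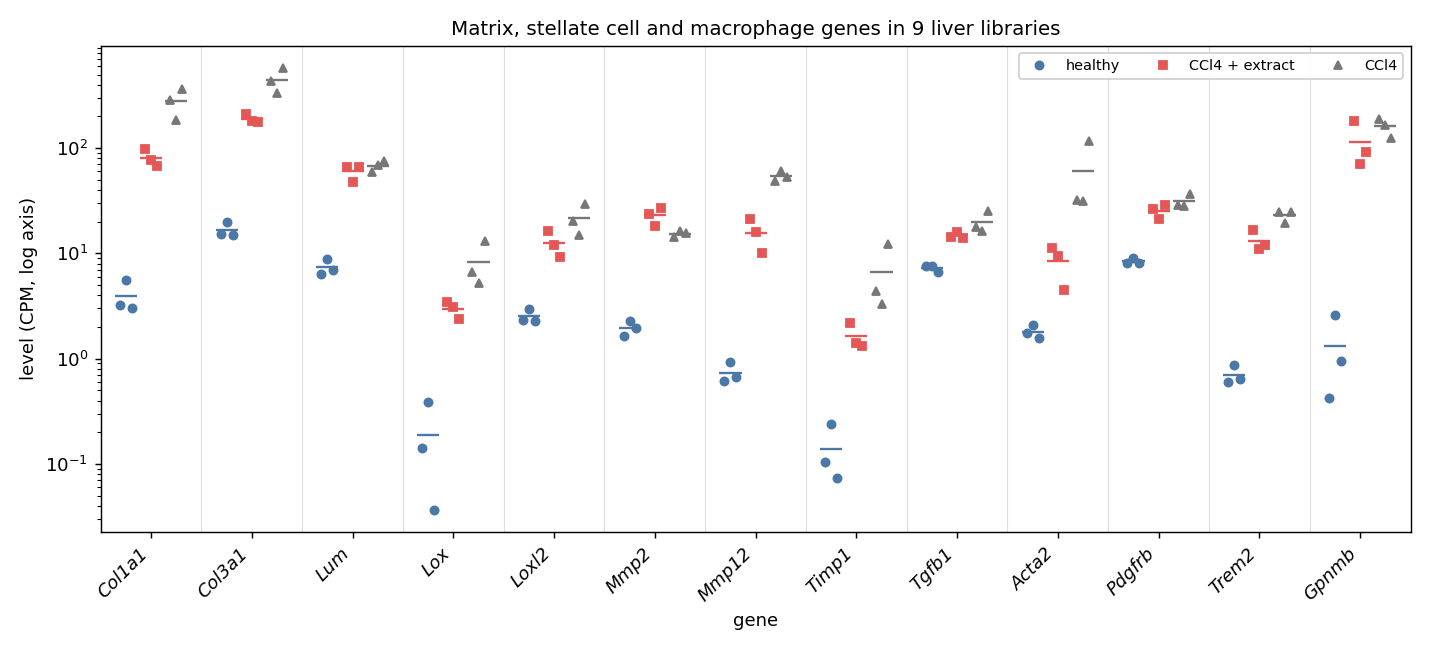
Levels of 13 matrix, stellate cell and macrophage genes in CPM on a log axis, with 1 point per library and a bar at the group mean, for healthy (circles), extract-treated CCl4 (squares) and CCl4 liver (triangles). In each of the 13 genes the 3 extract-treated libraries lie above the 3 healthy ones, and for Lum, Loxl2, Mmp2, Pdgfrb and Gpnmb at least 1 of them reaches or passes the CCl4 range.

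Lysyl oxidases, which cross-link collagen, were among the higher genes of collagen processing. Of 17 genes 10 were higher and none lower, with a median of 1.29. Lox, the lysyl oxidase that joins collagen chains, was at 0.140, 0.385 and 0.0369 CPM in healthy and 3.49, 3.10 and 2.38 CPM in extract-treated liver (4.08 ± 0.52, adjusted p = 1.1e-04), and its relative Loxl2 at 2.31, 2.96 and 2.29 CPM against 16.2, 11.99 and 9.28 CPM (2.27 ± 0.25). Adamts2, which trims the end of procollagen, differed by 2.30 ± 0.18, and Pcolce, which speeds procollagen cleavage, by 1.86 ± 0.21. Among hydroxylases that act on procollagen in the cell, Plod2 was higher (2.38 ± 0.36), and P4ha1 (0.28 ± 0.14), P4ha2 (-0.26 ± 0.14), Plod3 (-0.00 ± 0.10) and Plod1 (0.09 ± 0.08) were not called.

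Matrix proteases and their inhibitors were high together. Of 24 genes 19 were higher and none lower, 12 by over 2-fold, with a median of 2.04. Mmp2, a gelatinase of mesenchymal cells, was at 1.65, 2.26 and 1.95 CPM in healthy, 23.8, 18.2 and 26.9 CPM in extract-treated and 14.3, 16.4 and 15.5 CPM in CCl4 liver. The extract-treated libraries lay above the range of both other groups, by 3.52 ± 0.16 over healthy (adjusted p = 8.4e-08) and 0.56 ± 0.16 over CCl4 liver (adjusted p = 0.034). A joint test of standing above both groups, which takes the larger of the 2 p-values and adjusts it over all genes, was not passed (adjusted p = 0.54). Mmp12, the elastase of macrophages, stood at 0.614, 0.938 and 0.663 CPM against 21.1, 15.8 and 10.1 CPM (4.30 ± 0.24, adjusted p = 2.9e-07), and Adam8, a membrane protease of leukocytes, at 0.386, 0.841 and 0.498 CPM against 12.8, 8.96 and 7.81 CPM. Timp1, an inhibitor of matrix metalloproteases, was at 0.105, 0.240 and 0.0737 CPM against 2.19, 1.40 and 1.32 CPM (3.32 ± 0.47, adjusted p = 2.4e-04). Plat, the tissue plasminogen activator, differed by 3.75 ± 0.26. Mmp15 (0.00 ± 0.11) and Mmp9 (0.38 ± 0.31) were not called.

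Among signalling genes of fibrosis the differences were smaller. Of 28 genes of the TGF-beta pathway, the main signal for matrix production, 13 were higher and 2 lower, and 16 lay within 2-fold. The ligand Tgfb1 was at 7.61, 7.67 and 6.60 CPM in healthy, 14.3, 16.1 and 14.01 CPM in extract-treated and 17.7, 16.3 and 25.3 CPM in CCl4 liver, with no overlap between the first 2 groups (1.02 ± 0.16, adjusted p = 4.4e-04). Tgfb2 differed by 2.01 ± 0.43 and Tgfb3 by 2.47 ± 0.30. Ltbp1, which holds latent TGF-beta in the matrix, stood at 1.47, 1.32 and 1.44 CPM against 5.36, 4.46 and 5.39 CPM (1.81 ± 0.18), and the target Tgfbi at 28.8, 33.4 and 33.7 CPM against 80.4, 69.5 and 67.5 CPM (1.18 ± 0.10). The signal carriers Smad2 (-0.39 ± 0.13) and Smad4 (-0.27 ± 0.09) were lower by a small margin. Of 19 YAP and TEAD genes, which answer to stiffness and cell shape, 10 were higher and 3 lower (1 lower with library size alone), with Axl, a receptor kinase, at 26.6, 33.03 and 28.5 CPM against 69.3, 65.1 and 62.3 CPM (1.16 ± 0.11) and Amotl2, an inhibitor of YAP, at 30.7, 44.02 and 38.6 CPM against 21.96, 20.8 and 24.5 CPM (-0.74 ± 0.13). Of 13 Notch genes 7 were higher and none lower, and 4 were without extract-treated replicate 1 or 2. Hey1, a target of the pathway, differed by 1.51 ± 0.25, the receptor Notch3 by 1.19 ± 0.20 and the ligand Dll1 by 0.66 ± 0.16.

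Markers of the cells that make the matrix were higher in part. Of 21 markers of stellate cells and myofibroblasts 13 were higher and 2 lower, with a median of 1.15, and the summed level of the list was 285 to 311 CPM in healthy, 393 to 482 CPM in extract-treated and 526 to 756 CPM in CCl4 liver. No marker of the list was at 0 in all libraries. The part of this shift in the matrix differences was not tested. Pdgfrb, the receptor through which stellate cells are driven to divide, was at 8.10, 9.13 and 8.11 CPM against 26.1, 21.4 and 28.7 CPM (1.58 ± 0.14, adjusted p = 6.6e-06), and Pdgfra at 5.72, 8.27 and 6.62 CPM against 20.5, 18.6 and 24.4 CPM (1.63 ± 0.15). Neither differed from CCl4 liver by the test, at -0.31 ± 0.14 (adjusted p = 0.14) and 0.23 ± 0.15 (adjusted p = 0.31). Acta2, the smooth muscle actin of activated stellate cells, was at 1.74, 2.09 and 1.58 CPM in healthy, 11.2, 9.47 and 4.48 CPM in extract-treated and 32.2, 31.6 and 116 CPM in CCl4 liver. The groups did not overlap, and the difference from healthy was 2.10 ± 0.45 (adjusted p = 0.0038), a call that ended with voom weights on the recovered reads (adjusted p = 0.054). Tagln differed by 1.59 ± 0.31 in extract-treated and 3.49 ± 0.31 in CCl4 liver, Myl9 by 1.26 ± 0.33 and 3.02 ± 0.33, Des by 1.01 ± 0.27 and 1.73 ± 0.27, and Tpm2 by 0.09 ± 0.38 and 1.60 ± 0.38. Of these 4 contractile or filament genes Tpm2 was not called, and neither were Cnn1 (1.22 ± 1.20) and Actg2 (1.71 ± 0.87). Hhip, a hedgehog inhibitor made by resting stellate cells, was lower (-2.00 ± 0.38).

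Marker genes of scar macrophages were higher almost throughout. Of 19 markers of monocyte-derived and scar-associated macrophages 18 were higher and none lower, 12 by over 2-fold, with a median of 2.61 and summed levels of 834 to 949 CPM in healthy and 1682 to 2000 CPM in extract-treated liver. Trem2, a lipid-sensing receptor that defines these cells, was at 0.596, 0.865 and 0.645 CPM in healthy and 16.5, 11.1 and 11.99 CPM in extract-treated liver (4.16 ± 0.19, adjusted p = 8.4e-08). Gpnmb, a glycoprotein of lipid-laden macrophages, was at 0.421, 2.60 and 0.958 CPM against 181, 71 and 91.9 CPM, with 190.1, 166 and 125 CPM under CCl4. It was among the largest rises of the comparison (6.64 ± 0.50), and its extract-treated libraries overlapped the CCl4 range. Cd63, a tetraspanin of lysosomes, stood at 1.75, 3.17 and 2.89 CPM against 34.6, 40.2 and 35.4 CPM (3.84 ± 0.19), and Itgax (CD11c) at 1.16, 1.03 and 1.33 CPM against 9.35, 8.77 and 7.44 CPM (2.82 ± 0.15). Fabp5 was the member not called (-0.15 ± 0.44).

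Kupffer cell markers, of resident macrophages, were split. Of 13 Kupffer cell markers 9 were higher and none lower, with a median of 0.96. Clec4f (0.03 ± 0.11), Timd4 (0.35 ± 0.19), Folr2 (0.02 ± 0.13) and Cd163 (-0.05 ± 0.20) were not called. Vsig4 (0.56 ± 0.15), Cd5l (1.09 ± 0.13) and Spic (95% interval 1.05 to 1.95), also genes of resident macrophages, were higher, and the complement genes C1qa, C1qb and C1qc differed by 1.01 ± 0.15, 1.10 ± 0.14 and 1.11 ± 0.13. Marco, a scavenger receptor, was at 15.2, 30.8 and 12.96 CPM in healthy and 73.4, 204 and 139 CPM in extract-treated liver (2.81 ± 0.36, adjusted p = 1.2e-04).

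MHC class II genes, which present antigen to helper T cells, were above healthy. Each of the 10 genes of MHC class II was higher, with a median of 1.41 in extract-treated and 0.84 in CCl4 liver. Ciita, the factor that switches the class on, was at 1.17, 1.49 and 0.977 CPM in healthy, 4.04, 3.80 and 3.88 CPM in extract-treated and 2.50, 2.28 and 2.57 CPM in CCl4 liver, and the class II chain H2-Aa at 27.5, 27.2 and 27.1 CPM, 68.4, 62.6 and 64.2 CPM and 40.2, 33.6 and 57.8 CPM in the same order. In both genes the extract-treated libraries lay above all 6 others. They differed from healthy by 1.68 ± 0.19 and 1.25 ± 0.16, and from CCl4 liver by 0.67 ± 0.19 (adjusted p = 0.028) and 0.61 ± 0.16 (adjusted p = 0.019). Neither passed the joint test of standing above both groups (adjusted p = 0.49 and 0.4), and none of the 10 class II genes did. Of the 10 class II genes 5 were higher than in CCl4 liver. Markers of B and plasma cells and of dendritic cells, which present antigen, were also above healthy in part. Of 14 B and plasma cell markers 12 were higher (Blnk 2.50 ± 0.24, Igkc 1.64 ± 0.17), and of 10 dendritic cell markers 5 (Cd209a 3.11 ± 0.37, Flt3 2.26 ± 0.30). Their summed levels were 18.8 to 47.3 and 12.9 to 19.1 CPM in healthy and 41.6 to 49.3 and 28.3 to 30.8 CPM in extract-treated liver, the first of them overlapping between the groups, and their part in the class II difference was not tested.

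Other leukocyte lists were mixed. Of 13 neutrophil markers 11 were higher, at low levels: Ngp, a granule protein, was at 0.0351, 0.0481 and 0.147 CPM in healthy and 0.957, 1.66 and 1.76 CPM in extract-treated liver (3.80 ± 0.41), and Mpo, myeloperoxidase, at 0, 0.0481 and 0 CPM against 0.531, 0.648 and 0.581 CPM (3.67 ± 0.42). With genes of under 1 CPM on average left out, 3 neutrophil genes were called. Of 23 T and NK cell markers 5 were higher, a share near that of all genes (2 with genes of under 1 CPM on average left out), and the T cell receptor genes Cd3e (0.40 ± 0.43) and Trac (0.40 ± 0.32) were not called. Of 22 chemokines 11 were higher (7 with that filter) and 1 lower, with Ccl2, which draws in monocytes, at 0.596, 0.481 and 0.295 CPM against 2.19, 3.10 and 2.03 CPM (2.35 ± 0.28), Cxcl16 at 1.23 ± 0.16 and Ccl6 at 1.08 ± 0.16. Of 37 interferon response genes 11 were higher (7 without extract-treated replicate 2) and 1 lower, and 25 lay within 2-fold. In all 32.4% of this list was called, a share near the 34.6% of all genes. Oasl2, an antiviral gene, differed by 0.98 ± 0.17 and Ifit2 by 0.94 ± 0.14, while Iigp1, a GTPase induced by interferon gamma, was at 349, 392 and 319 CPM in healthy and 213, 202 and 162 CPM in extract-treated liver (-0.88 ± 0.14).

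Genes of bile duct cells and of the fetal liver were also above healthy. Of 20 cholangiocyte and ductular markers 15 were higher and none lower, 1 by over 2-fold, with a median of 1.53. With voom weights on the recovered reads 9 were called. Prom1 and Cd24a of this list are counted among the fetal liver genes too, and Spp1 among the scar macrophage markers. Prom1, a progenitor surface protein, stood at 0.824, 1.49 and 0.958 CPM against 10.8, 7.56 and 4.42 CPM (2.71 ± 0.36), Sox9, a factor of ductal cells, at 2.81, 2.96 and 3.87 CPM against 6.53, 7.003 and 7.52 CPM (1.13 ± 0.15), and Spp1, osteopontin, at 30.5, 23.6 and 37.3 CPM against 118, 107 and 97.96 CPM (1.84 ± 0.26). Krt8 (0.35 ± 0.14) and Krt18 (0.01 ± 0.20), keratins that hepatocytes share, were not called. Of 9 fetal liver and tumour marker genes 7 were higher, 5 by over 2-fold. Afp, alpha-fetoprotein, was at 1.70, 1.83 and 1.27 CPM in healthy, 21.8, 22.3 and 23.1 CPM in extract-treated and 85.2, 104.7 and 86.99 CPM in CCl4 liver, a difference from healthy of 3.79 ± 0.14 (adjusted p = 1.5e-08). H19, a fetal long RNA, ran the other way between the injured groups, at 0.0351, 0.144 and 0.0369 CPM in healthy, 3.85, 4.06 and 11.2 CPM in extract-treated and 1.42, 1.58 and 2.50 CPM in CCl4 liver. It was higher than healthy by 5.83 ± 0.46 (adjusted p = 3.5e-06) and higher than CCl4 liver by 1.64 ± 0.46 (adjusted p = 0.029), and replicate 3 held the highest extract-treated value. H19 did not pass the joint test of standing above both groups (adjusted p = 0.49). Gpc3, a cell surface proteoglycan of fetal liver, differed from healthy by 3.85 ± 0.28. Igf2, the neighbour of H19 in the genome, was not called (0.62 ± 0.74).

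Mitosis genes were higher without exception. All 38 tested genes of the mitosis and spindle list were higher, each by over 2-fold, against 4.07% of all genes, and their differences ran from 1.73 (Cdc25b) to 5.46 (Ccnb1), with a median of 3.57. The median in CCl4 liver was 6.21. Ccnb1 (chr13:100778739-100786486), cyclin B1, which starts mitosis with the kinase Cdk1, was at 0.281, 0.769 and 0.0369 CPM in healthy, 16.2, 13.03 and 7.58 CPM in extract-treated and 75.4, 63.3 and 76.1 CPM in CCl4 liver. The 3 groups were fully apart, and the difference from healthy was 5.46 ± 0.63 (adjusted p = 5.3e-05). Cdk1 (chr10:69335146-69352912) stood at 1.052, 1.32 and 1.014 CPM against 19.3, 14.6 and 9.73 CPM (3.60 ± 0.22, adjusted p = 5.7e-07). Cdc20, which triggers the separation of chromosomes, stood at 0.403, 0.673 and 0.313 CPM against 21.7, 15.97 and 10.4 CPM (5.01 ± 0.28), and the spindle checkpoint gene Bub1b at 0.736, 0.865 and 0.553 CPM against 5.97, 5.99 and 4.69 CPM (2.90 ± 0.18). Within the extract-treated group replicate 1 held the highest and replicate 3 the lowest value of Ccnb1, Cdk1 and Cdc20. The summed level of the list was 228 to 432 CPM in extract-treated liver, against 24.7 to 47.3 CPM in healthy and 1655 to 2100 CPM in CCl4 liver.

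Many promoters of these genes hold short sequences that the choice of the list did not use. Promoters of mitosis genes are known for a CCAAT box, bound by NF-Y, and for TTTGAA, the core of the element through which cell cycle genes are held down in resting cells. The upstream sequences of Ccnb1, Cdk1 and Cdc20 are shown because these genes carry the mitosis result. Each is the 250 bases before the RefSeq start (GRCm38.p6), read 5′ to 3′ on the strand of the gene, here the minus strand, with CCAAT and TTTGAA and their reverse complements ATTGG and TTCAAA in capitals.
Ccnb1, chr13:100786487-100786736: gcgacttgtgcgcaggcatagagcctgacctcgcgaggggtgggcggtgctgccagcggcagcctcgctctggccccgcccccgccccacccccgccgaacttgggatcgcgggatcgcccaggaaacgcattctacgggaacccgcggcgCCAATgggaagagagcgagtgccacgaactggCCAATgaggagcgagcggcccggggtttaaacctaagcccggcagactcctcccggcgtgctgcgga
Cdk1, chr10:69352913-69353162: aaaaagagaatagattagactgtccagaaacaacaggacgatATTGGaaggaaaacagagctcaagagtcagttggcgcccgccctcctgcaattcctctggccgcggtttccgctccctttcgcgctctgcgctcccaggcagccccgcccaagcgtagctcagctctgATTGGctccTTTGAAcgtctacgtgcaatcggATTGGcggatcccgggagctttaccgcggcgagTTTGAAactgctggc
Cdc20, chr4:118437344-118437593: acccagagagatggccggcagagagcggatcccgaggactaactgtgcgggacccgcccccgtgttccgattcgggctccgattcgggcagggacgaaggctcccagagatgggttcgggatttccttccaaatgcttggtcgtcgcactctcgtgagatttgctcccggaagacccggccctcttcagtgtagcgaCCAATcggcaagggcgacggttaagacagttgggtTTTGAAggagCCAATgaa
Ccnb1 holds 2 CCAAT boxes and no TTTGAA in these bases, Cdk1 holds 3 and 2, and Cdc20 holds 2 and 1. Windows of 300 bases, 250 before and 50 after the start, were matched for 32 of the 38 mitosis genes, with 34 windows in all. On either strand CCAAT was in 27 (79.4%), TTTGAA in 26 (76.5%) and both in 23 (67.7%). Over all 32851 windows the shares were 37.4%, 17.9% and 6.95%, and the 2 motifs shared a base in 47 windows. Of 36 windows of 31 S phase genes, 21 (58.3%) held CCAAT and 4 (11.1%) TTTGAA. A match is a description of the letters and not a bound site.

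The S phase genes, which copy DNA before mitosis, lay much nearer to healthy. Of 38 tested genes 19 were higher and 2 lower, 20 lay within 2-fold, and the median difference was 0.48, against 2.30 in CCl4 liver. Pcna, the sliding clamp of replication, was at 27, 27.1 and 27.6 CPM in healthy, 31.01, 29.1 and 23.6 CPM in extract-treated and 70.5, 67.1 and 85.3 CPM in CCl4 liver, and its difference from healthy was 0.03 ± 0.12, with a 95% interval from -0.24 to 0.29. Mcm7 (0.04 ± 0.11), Cdt1 (0.09 ± 0.16) and Rfc4 (0.02 ± 0.19), all of the replication machinery, were not called either. Higher members included the helicase subunits Mcm6, at 3.998, 3.94 and 3.59 CPM against 14.98, 14.5 and 11.6 CPM (1.82 ± 0.12), and Mcm5, at 2.42, 2.02 and 1.92 CPM against 7.86, 7.09 and 6.16 CPM (1.71 ± 0.14). Mcm10, a replication factor, went against the list, at 94.9, 95.7 and 77.6 CPM in healthy, 20.6, 24.8 and 24.6 CPM in extract-treated and 17.4, 16.99 and 13.5 CPM in CCl4 liver. It was lower than healthy (-1.93 ± 0.13, adjusted p = 1.1e-06). E2f8, the other lower member, is described with the genes outside both groups.

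**Figure D3:**
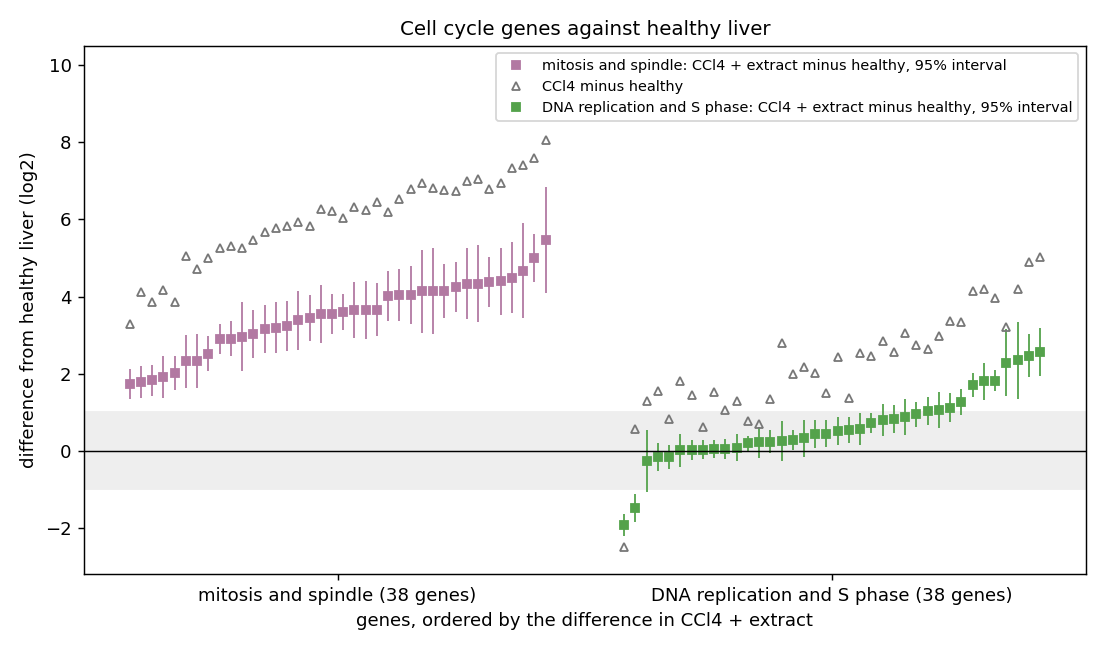
Log2 differences from healthy liver of the 38 mitosis and spindle genes (left) and the 38 S phase genes (right), ordered by the value in extract-treated CCl4 liver, which is drawn as squares with 95% confidence intervals. Open triangles are CCl4 liver, and the grey band marks 2-fold. All mitosis squares lie above the band, and most S phase squares lie in it or touch it.

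Of 23 targets of p53, the factor that answers DNA damage, 10 were higher and none lower (16 higher with library size alone). Tnfrsf10b, a death receptor, was at 0.140, 0.192 and 0.240 CPM against 2.40, 2.61 and 1.78 CPM (3.34 ± 0.24), and Phlda3 (2.36 ± 0.24) and Eda2r (2.36 ± 0.28) also differed by over 2-fold. Cdkn1a, the inhibitor p21 of cyclin kinases, differed by 1.38 ± 0.41, while the p53 regulator Mdm2 (0.20 ± 0.09) was not called.

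Male-biased and growth hormone genes were far below healthy liver, and 4 of the 8 largest falls belong to this list. Of 23 genes 21 were lower and none higher, 15 by over 2-fold, with a median of -2.93 in extract-treated and -2.43 in CCl4 liver. Hsd3b5 (chr3:98618636-98645534), a steroid dehydrogenase of male liver, was at 195, 229 and 209 CPM in healthy and 0.298, 0.140 and 0.155 CPM in extract-treated liver, against 0.364, 0.631 and 1.59 CPM under CCl4. That is a difference of -9.87 ± 0.41 (adjusted p = 3.6e-08). Mup7, a major urinary protein that carries pheromones, went from 3455, 3716 and 3148 CPM to 4.25, 5.55 and 8.12 CPM (-9.21 ± 0.23, adjusted p = 8.0e-10). The Mup genes are near-identical copies among which reads can be shared, so the values of single copies are uncertain. Members outside the Mup family were lower too: Elovl3, a fatty acid elongase, stood at 234, 466 and 410.4 CPM against 5.29, 3.71 and 18.8 CPM (-5.62 ± 0.53), the organic anion carrier Slco1a1 at 454, 536 and 387 CPM against 8.44, 8.32 and 8.78 CPM (-5.74 ± 0.30), and Cyp7b1, an oxysterol hydroxylase, at 156, 163 and 137 CPM against 13.1, 12.4 and 18.1 CPM (-3.40 ± 0.17). In each of these 3 the extract-treated libraries lay far below healthy, and the differences from CCl4 liver were 0.09 ± 0.53, -0.47 ± 0.30 and 0.32 ± 0.17, none of them called. Of the other members, the growth hormone receptor Ghr differed by -0.70 ± 0.15, the hormone mediator Igf1 by -0.92 ± 0.11, its carrier Igfals by -1.24 ± 0.11 and the feedback inhibitor Socs2 by -2.76 ± 0.55. Stat5b (0.25 ± 0.15) and Bcl6 (-0.02 ± 0.38) were not called.

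**Figure D4:**
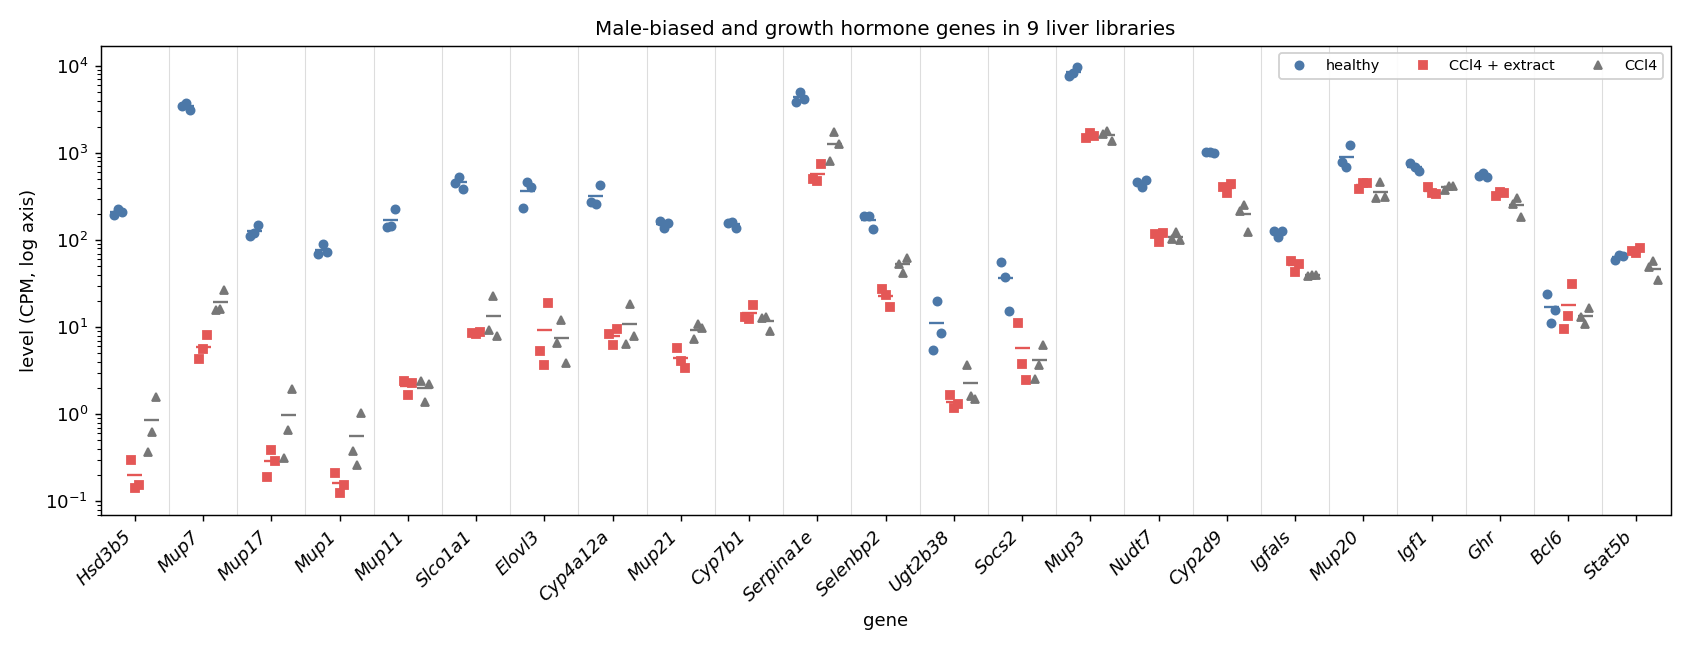
Levels in CPM, on a log axis, of the 23 tested male-biased and growth hormone genes, ordered by their log2 difference between extract-treated CCl4 and healthy liver. Points are single libraries and bars group means. From Hsd3b5 to Ghr the extract-treated squares lie below the healthy circles, and from Mup11 to Cyp4a12a they lie among the CCl4 triangles, with the 3 groups close together for Bcl6.

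Female-biased genes were higher in part. Of 14 genes 6 were higher and 2 lower, 4 and 1 of them by over 2-fold, and 11 of the 14 differences were above 0. The median was 1.13 in extract-treated and 0.08 in CCl4 liver, and the summed level 53.4 to 98.9 CPM in healthy and 289.95 to 450.1 CPM in extract-treated liver. Cyp2a4, a steroid hydroxylase, was at 2.19, 2.28 and 3.10 CPM in healthy, 79.2, 155 and 92.5 CPM in extract-treated and 166, 301 and 307 CPM in CCl4 liver (5.37 ± 0.27, adjusted p = 1.4e-07). Cyp2b9 differed by 2.99 ± 0.50, Cyp3a44 by 2.16 ± 0.21 and the bile acid sulfotransferase Sult2a1 by 3.49 ± 0.59. Cyp2c69 (-2.76 ± 0.35) and Cyp2c40 (-1.84 ± 0.33) were lower. All of these belong to families of close copies, with the same uncertainty.

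Among drug metabolism genes falls outnumbered rises. Over all genes 21% were higher and 13.6% lower, so the share of rises among these genes was near or below that of all genes. Of 34 cytochrome P450 genes 8 were higher and 13 lower, with a median of -0.31 in extract-treated and -1.08 in CCl4 liver. Cyp2e1, which activates CCl4, was at 7316, 8875 and 9072 CPM in healthy, 2664, 3265 and 3058 CPM in extract-treated and 603, 1129 and 256 CPM in CCl4 liver. It lay between both groups in all 3 libraries, -1.49 ± 0.39 from healthy (adjusted p = 0.012). Cyp2u1, a fatty acid hydroxylase, was lower (-2.14 ± 0.18). Cyp3a11, the main Cyp3a enzyme of mouse liver, was not called (0.42 ± 0.27, 95% interval -0.16 to 1.00), and neither was Cyp1a2 (0.35 ± 0.25). Cyp2b10, the classical target of the receptor Car, was at 37.4, 33.4 and 70.1 CPM in healthy and 229, 334 and 133 CPM in extract-treated liver (2.28 ± 0.41). Of 48 conjugation and related enzymes 6 were higher and 18 lower, and 31 lay within 2-fold. Gstp1 stood at 905, 913 and 860.5 CPM against 348, 426 and 465 CPM (-1.12 ± 0.12), and Sult1e1, the estrogen sulfotransferase, at 0.421, 0.120 and 0.313 CPM against 1.98, 3.22 and 1.90 CPM (2.99 ± 0.39).

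Bile acid genes were lower in part. Of 27 genes 9 were lower and 1 higher, with a median of -0.32, and 17 lay within 2-fold. Besides Slco1a1 and Cyp7b1, Cyp8b1, which makes cholic acid, was lower (-1.46 ± 0.28), as was Slc10a1, the carrier that takes bile salts up from blood (-0.54 ± 0.19). Cyp7a1, the rate-limiting enzyme of bile acid synthesis, varied within groups, at 446, 128 and 127 CPM in healthy and 283, 269 and 316 CPM in extract-treated liver, and was not called (0.58 ± 0.51, adjusted p = 0.4). Abcb11, the export pump of bile salts, was not called either (0.11 ± 0.20). Of 24 cholesterol synthesis genes 5 were lower (9 without healthy replicate 2) and none higher (3 without healthy replicate 1), with Idi1 at 109, 68.1 and 57.4 CPM against 42.6, 37.6 and 43 CPM (-0.88 ± 0.20). In all 20.8% of the cholesterol list was called, below the 34.6% of all genes, and 20 of its genes lay within 2-fold.

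Of 24 genes of fatty acid and triglyceride synthesis 7 were higher and 3 lower, shares near those of all genes, and the higher count was 12 without healthy replicate 1 and 4 without extract-treated replicate 1 or 3. Pnpla3, a lipid droplet protein, was at 5.28, 1.13 and 2.17 CPM in healthy and 26.7, 18.6 and 15.8 CPM in extract-treated liver (3.06 ± 0.49), and Scd2, a desaturase, at 26.5, 7.81 and 11.1 CPM against 105.0, 62.3 and 44.3 CPM (2.32 ± 0.41). Fasn, the fatty acid synthase, differed by 1.13 ± 0.25. Of 35 targets of PPAR-alpha, which drives fat oxidation, 4 were higher and 11 lower. Cyp4a12a, also male-biased, was at 275, 259.6 and 423 CPM against 8.29, 6.20 and 9.46 CPM (-5.30 ± 0.33), and Fabp1, the fatty acid carrier of hepatocytes, differed by -0.94 ± 0.17. Cyp4a31, of the same family as Cyp4a12a, was higher (3.63 ± 0.24), the largest rise of the list. The other higher members were Acot2, Cd36, a fatty acid carrier at the cell surface (1.24 ± 0.12), and Pdk4, which spares glucose (1.75 ± 0.18). The mitochondrial genes Acadl (-0.20 ± 0.09), Hadha (-0.14 ± 0.10) and Cpt2 (-0.27 ± 0.15) were not called.

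Genes of amino acid breakdown lay mostly within 2-fold of healthy liver. Of 27 genes of the urea cycle and amino acid breakdown 12 were lower and none higher, but 24 lay within 2-fold, and the lower count was 5 without extract-treated replicate 1 and 7 without extract-treated replicate 3 or healthy replicate 3. Those over 2-fold were Glul, glutamine synthetase of the last hepatocytes around the central vein, at 793, 719.7 and 709 CPM in healthy, 103, 119.6 and 123 CPM in extract-treated and 83.04, 80.7 and 82.4 CPM in CCl4 liver (-2.68 ± 0.10, adjusted p = 1.4e-08), and Oat, ornithine aminotransferase of the same cells (-2.59 ± 0.33). Otc (-0.02 ± 0.14), Ass1 (-0.06 ± 0.17) and Cps1 (-0.28 ± 0.23) of the urea cycle were not called. Of 15 genes of methionine and taurine metabolism 13 lay within 2-fold. Csad, which makes taurine, was at 203, 289 and 191 CPM in healthy, 115, 243 and 374 CPM in extract-treated and 28.8, 42.3 and 17.5 CPM in CCl4 liver (-0.03 ± 0.38 from healthy, -3.01 ± 0.38 for CCl4). The small calls of this list, Ahcy (-0.64 ± 0.19), Cbs (-0.33 ± 0.11) and Bhmt (0.65 ± 0.23), each ended in several alternatives and without single libraries of the healthy or extract-treated group, where their adjusted p reached 0.079 for Ahcy (without extract-treated replicate 1), 0.17 for Cbs (the same) and 0.15 for Bhmt (without healthy replicate 2). Of 25 glucose genes 7 were higher and 3 lower (1 lower without healthy replicate 3 or extract-treated replicate 1 or 3) and 18 lay within 2-fold, shares near those of all genes. Pkm, the pyruvate kinase of non-hepatocytes and dividing cells, stood at 13.97, 19.6 and 15.4 CPM against 59.01, 47.4 and 53.9 CPM (1.72 ± 0.16), Hk2 at 1.36 ± 0.20 and Igfbp1 at 1.03 ± 0.18, while Pck1 of glucose synthesis was lower (-0.62 ± 0.17).

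Pericentral genes included 1 of the 8 largest falls, Slc1a2. Of 19 pericentral genes 6 were lower and 3 higher, the higher count being 1 without extract-treated replicate 3 and 5 without the CCl4 libraries in the fit, and the 4 over 2-fold lower were Slc1a2, Glul, Oat and Lhpp. Slc1a2, a glutamate carrier, was at 208, 198 and 174 CPM in healthy, 0.957, 1.37 and 5.77 CPM in extract-treated and 0.827, 0.245 and 1.38 CPM in CCl4 liver (-6.58 ± 0.62, adjusted p = 1.3e-05), with extract-treated replicate 3 the highest of its group. Tbx3, a transcription factor, was lower by less (-0.73 ± 0.26). Axin2 (0.52 ± 0.24), Nkd1 (-0.03 ± 0.16) and Rnf43 (0.01 ± 0.14), feedback genes of Wnt signalling, were not called, and Lgr5 (0.77 ± 0.22) and Lect2 (0.87 ± 0.09) were higher. Of 16 periportal genes 4 were lower and 3 higher, against 13.6% lower and 21% higher over all genes, so that the higher share was near that of all genes. Within 2-fold lay 14 of them, and none was lower without extract-treated replicate 1. The higher ones, Sox9, Cdh1 (0.69 ± 0.13) and Ctsc (0.39 ± 0.11), are also expressed by bile duct cells or leukocytes.

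Hepatocyte identity genes were lower in part. Of 23 hepatocyte markers 7 were lower and 1 higher, with summed levels of 194670 to 223160 CPM in healthy and 207650 to 224000 CPM in extract-treated liver, and Alb was not called (0.16 ± 0.48, adjusted p = 0.83). Of 28 liver transcription factors and nuclear receptors 17 were lower and 1 higher, none over 2-fold, with a median of -0.46. The lower count was 11 with library size alone, 10 without extract-treated replicate 1, and 11 without extract-treated replicate 2 or healthy replicate 1. Hnf4a, the master regulator of hepatocytes, was at 965, 1071 and 1049.9 CPM in healthy, 605, 575 and 624 CPM in extract-treated and 503, 534 and 411 CPM in CCl4 liver (-0.77 ± 0.12, adjusted p = 4.5e-04). Cebpa, its partner, stood at 355, 318 and 341 CPM against 189, 183 and 216 CPM (-0.79 ± 0.12), and Onecut1 differed by -1.98 ± 0.45. Ppard was the higher one (1.46 ± 0.15).

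Genes of proteins that the liver secretes were lower in part too. Of 30 complement and coagulation genes 12 were lower, none higher and 24 within 2-fold. The terminal complement genes C6 (-1.31 ± 0.18), C8a (-1.18 ± 0.13) and C8b (-1.19 ± 0.14) were among them, with C8a at 912, 1076 and 955 CPM in healthy and 514, 382 and 407 CPM in extract-treated liver. Of 28 acute phase genes 9 were lower and 2 higher. The lower count was 5 with library size alone, without healthy replicate 3 or without extract-treated replicate 1, and 4 without extract-treated replicate 3. The fibrinogen chain Fgb stood at 4648, 4550.1 and 4942 CPM against 3004, 2596 and 2886 CPM (-0.74 ± 0.15), and Lcn2, lipocalin, at 32.2, 12.2 and 24.8 CPM against 91, 128 and 95.05 CPM (2.27 ± 0.29). Hamp, hepcidin, the hormone that limits iron uptake, was at 520.0, 495 and 528 CPM against 103, 193 and 86.1 CPM (-2.11 ± 0.23, adjusted p = 3.8e-05), 1 of 3 lower genes among 14 of iron regulation. In all 35.7% of the iron list was called, a share near the 34.6% of all genes.

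Genes of the protein folding machinery were lower than healthy, though the count was sensitive. Of 19 endoplasmic reticulum chaperone genes 14 were lower than healthy and none higher, with medians of -0.44 in extract-treated and 0.04 in CCl4 liver, and 12 were lower than in CCl4 liver, which need not be among the 14. None of the 19 passed the joint test of lying below both groups. The count against healthy was 5 with library size alone and 9, 8 and 7 without extract-treated replicate 1, 2 or 3. Hyou1, a chaperone, was at 218, 271 and 330.4 CPM in healthy, 149, 153 and 152 CPM in extract-treated and 223, 227 and 255 CPM in CCl4 liver, and Calr, calreticulin, at 534, 559 and 605 CPM, 401, 359.9 and 389.6 CPM and 575, 526 and 646 CPM in the same order. In both genes the extract-treated libraries lay below all 6 others, by -0.83 ± 0.13 and -0.56 ± 0.11 from healthy and -0.63 ± 0.13 and -0.60 ± 0.11 from CCl4 liver (adjusted p = 0.0066 and 0.0031 for the latter). The joint test missed the threshold for both (adjusted p = 0.2 and 0.16). Xbp1, the factor that induces chaperones, stood at 299, 252 and 327 CPM against 142, 112 and 117 CPM (-1.24 ± 0.14).

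Genes of the antioxidant and ATF4 stress responses were higher in part. Of 21 NRF2 genes, the antioxidant response, 8 were higher and 1 lower: Hmox1, heme oxygenase, stood at 18.95, 19.9 and 17.4 CPM against 44.1, 44.3 and 36.3 CPM (1.14 ± 0.12) and Slc7a11, the cystine carrier, at 0, 0.0240 and 0.0369 CPM against 0.680, 2.26 and 0.388 CPM (4.01 ± 0.60), while Gclc (0.16 ± 0.19) and Txnrd1 (-0.15 ± 0.08) were not called. Of 24 genes of the ATF4 stress response 12 were higher and 3 lower (1 lower without any 1 of the extract-treated libraries, and 5 without healthy replicate 1), among them Psat1 (2.60 ± 0.28) and Phgdh (2.52 ± 0.36) of serine synthesis and Nupr1 (2.22 ± 0.27). Of 21 immediate early genes 9 were higher and 3 lower (1 with library size alone or without healthy replicate 2), with Klf6 at 1.39 ± 0.19 and Myc at 1.15 ± 0.19.

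Clock genes were lower in part. Of 20 clock genes 8 were lower and 2 higher (4 without healthy replicate 3), with a median of -0.47. Nr1d1, a repressor of the clock, was at 132, 89.9 and 114 CPM in healthy and 23.3, 44.2 and 27.7 CPM in extract-treated liver (-1.85 ± 0.20), and Npas2 at 1.32, 4.71 and 3.83 CPM against 14.3, 9.87 and 14.98 CPM (2.14 ± 0.36). The labels give no hour of sampling.

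In a few genes extract-treated liver stood outside the range from healthy to CCl4 liver. Such genes had to pass the joint test, differing from both groups in the same direction by the larger of 2 limma p-values adjusted over all genes. There were 8 above both (0.0531% of the tested genes) and 7 below both (0.0464%). Above both stood Hao2, a peroxisomal oxidase, at 0.158, 0.144 and 0.258 CPM in healthy, 0.0992, 0.193 and 0.241 CPM in CCl4 and 2.15, 2.68 and 1.71 CPM in extract-treated liver (3.32 ± 0.37 from healthy and 3.40 ± 0.37 from CCl4). Gstm3, a glutathione transferase, was at 111, 77.4 and 71.3 CPM in healthy, 136, 154 and 171 CPM in CCl4 and 392, 469 and 457 CPM in extract-treated liver (2.37 ± 0.16 and 1.52 ± 0.16). Cyp2c55 was at 17.1, 15.3 and 13.9 CPM in healthy, 44.2, 37.9 and 23.9 CPM in CCl4 and 115, 116 and 163 CPM in extract-treated liver (3.07 ± 0.20 and 1.92 ± 0.20). In each of these 3 genes the lowest extract-treated library was above the highest of the other 6. Cyp4a31 (3.63 ± 0.24 and 1.54 ± 0.24) and Slc22a7, an organic anion carrier (1.28 ± 0.19 and 1.86 ± 0.19), met the same rule, as did Sult2a2, Sult2a5 and Cyp39a1.

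Below both stood E2f8, a repressor of cell cycle genes, at 7.17, 7.43 and 6.36 CPM in healthy, 9.74, 10.9 and 10.3 CPM in CCl4 and 2.70, 2.94 and 1.88 CPM in extract-treated liver. It was lower than healthy (-1.49 ± 0.17) and lower than CCl4 liver (-2.05 ± 0.17). Dpy19l3, a mannosyltransferase, was at 14.2, 15.1 and 9.88 CPM in healthy, 14.2, 13.4 and 12.3 CPM in CCl4 and 5.93, 5.95 and 5.79 CPM in extract-treated liver (-1.12 ± 0.15 and -1.17 ± 0.15), with its 3 extract-treated values within a narrow range. Mup7, Serpina4-ps1 (-9.09 ± 0.46 and -3.17 ± 0.46) and Selenbp2 (-2.93 ± 0.20 and -1.23 ± 0.20) were lower than healthy under CCl4 as well and lower again with the extract. F11 and Fabp2 completed the 7. These calls differ in how firm they are. Counting the fit above and 19 alternatives, Cyp2c55, Gstm3 and E2f8 were called in 19 of 20 fits and Hao2 in 18. Mup7 was called in 16, Slc22a7 in 12, Dpy19l3 in 11 and Serpina4-ps1 in 10. The other 7 genes were called in 6 to 9 fits. The count of 15 genes fell to 8 or fewer without healthy replicate 1 or 2, without CCl4 replicate 1 or 2, or without any 1 of the extract-treated libraries, down to 3 without extract-treated replicate 2.

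**Figure D5:**
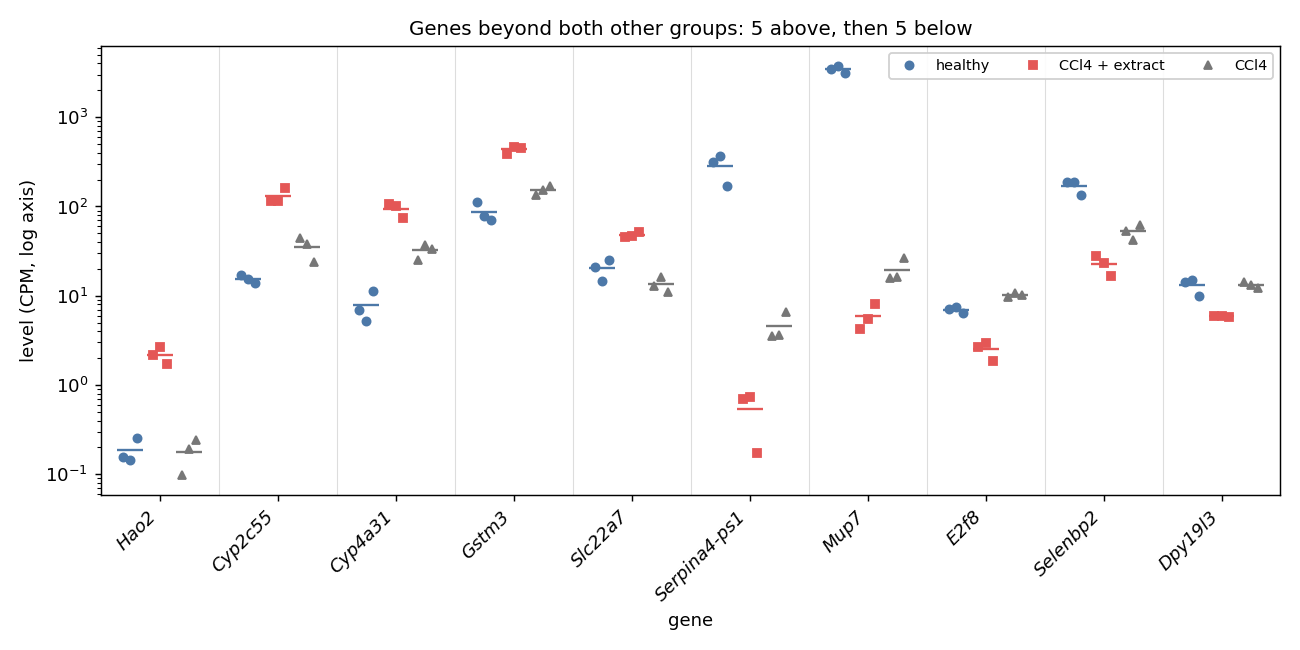
Levels in CPM on a log axis of 5 genes above and 5 genes below both other groups, with 1 point per library and bars at group means. The extract-treated squares lie above both other groups for Hao2, Cyp2c55, Cyp4a31, Gstm3 and Slc22a7 and below both for Serpina4-ps1, Mup7, E2f8, Selenbp2 and Dpy19l3.

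The largest single differences were named by size among called genes of at least 2 CPM whose healthy and extract-treated libraries did not overlap. At the top stood S100g, a calcium-binding protein, at 0.0701, 0.577 and 0.0369 CPM in healthy, 34.9, 53.9 and 30.7 CPM in extract-treated and 18.8, 35.7 and 14.2 CPM in CCl4 liver (7.84 ± 0.62, adjusted p = 3.6e-06). Cfap44, a gene of the ciliary axoneme, had no read in any healthy library and 3.97, 3.20 and 2.71 CPM in extract-treated liver, at least 54.95-fold higher against a floor of 3 reads per healthy library. Lrtm2, a membrane protein, stood at 0.0701, 0.0481 and 0 CPM against 2.55, 2.14 and 2.60 CPM (5.14 ± 0.37), and Lockd, a long RNA, at 0.0351, 0.0481 and 0 CPM against 3.23, 2.10 and 1.20 CPM (5.07 ± 0.39). With them ranked Gpnmb, H19, Ccnb1 and Cyp2a4. The 8 largest falls were Hsd3b5, Mup7, Serpina4-ps1, Mup17, Mup1, Mup14, Mup15 and Slc1a2, all described above but for the other Mup genes, of which Mup14 went from 559.5, 708 and 496 CPM to 2.38, 2.36 and 3.10 CPM (-7.79 ± 0.22). Serpina4-ps1, a gene annotated as a pseudogene, was at 318, 369.8 and 168 CPM in healthy and 0.701, 0.735 and 0.174 CPM in extract-treated liver.

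Markers of blood and of neighbouring tissue were read as well. Of 6 red blood cell genes 4 were higher and 1 lower. Hbb-bs, beta globin, was at 17.03, 9.57 and 25.8 CPM in healthy and 54.5, 19.9 and 58.1 CPM in extract-treated liver, high in extract-treated replicates 1 and 3 and overlapping the healthy range in replicate 2. The 4 higher calls were all lost without healthy replicate 1 or 2 or without extract-treated replicate 1 or 3, and 1 was left with robust variances or without the variance trend. Of 6 mesothelial markers 4 were higher, with Msln at 0.596, 0.721 and 0.240 CPM against 2.36, 1.45 and 2.91 CPM (2.10 ± 0.38), and of 3 platelet markers Pf4 (2.07 ± 0.27) and Ppbp (1.62 ± 0.42) were higher, the latter not without extract-treated replicate 1 (adjusted p = 0.050), while Itga2b was not called (0.10 ± 0.22). Of 24 endothelial markers 7 were higher (11 with library size alone) and none lower, 29.2% called against 34.6% of all genes. Within 2-fold lay 20 of them, among them the sinusoidal genes Stab2 (0.27 ± 0.23) and Clec4g (0.10 ± 0.12), while Cd34, which capillary endothelium carries, differed by 2.31 ± 0.34. Single genes of pancreas (Cela2a, 0.316, 0.0962 and 0.387 CPM against 1.25, 0.998 and 0.736 CPM), adipose tissue (Cidec, -0.51 ± 0.20, not called) and skeletal muscle (Mylpf, 0.32 ± 0.31, not called) passed the filter, and 5 of the 8 pancreas genes had no read in any of the 9 libraries. The part of these markers in the differences of other lists was not tested.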

How the data were processed

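RNA of whole liver was sequenced in 9 libraries, 3 per group, from stranded TruSeq mRNA libraries per the labels' protocols, whose extraction text speaks of organoids and does not mention tissue. The authors deposited 1 liver table of log2 values (log2 CPM on scaled library sizes, prior count 2), and the submitters' processing notes name the build mm10. Aligner and counter: not given in the sources used here. Undoing the logarithm gave whole reads, within 0.05 of an integer, for 100% of the values, so that depth and CPM could be recovered. These reads served for levels, filters and voom, and the tests ran on the deposited log2 values.

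Genes passed when at least 3 libraries reached 0.175 CPM (10 reads in the library of median size) and the total was at least 15 reads, which left 15078 of 25859 genes. A linear model over the 3 groups was fitted with limma 3.58.1 in R 4.3.3 (variance trend, empirical Bayes), with an adjusted p of 0.05 as threshold, treat for over 2-fold and a 95% interval. The 3 groups shared the estimate of the spread, and the replicate number was no term of the model. Gene positions are RefSeq GRCm38.

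The text names 6 anchor genes, the 8 largest rises and 8 largest falls among called genes of at least 2 CPM, the 3 called members of smallest p in each list, and 5 genes each way beyond both groups. The largest rises and falls were taken only from genes whose healthy and extract-treated libraries did not overlap. Other members were named after their values were seen, to show the extremes of a list or its uncalled members. The members and lists were chosen with earlier results of these data known. Other scalings, filters, prior counts, variance settings, voom, a fit of the healthy and extract-treated libraries alone, a replicate block and leaving out each library were tried. The code was tested on simulated data. The organoid tables were not used here. Some single genes are not reported here.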

Additional observations from a re-analysis of the deposited data

How the results depend on the processing

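The counts of genes called, over 2-fold and within 2-fold held their size within 1.5 times under the 11 other settings and without any single library. Over all of these fits they ran from 3611 to 5683, from 433 to 702 and from 9537 to 10981, the last with no filter on low values. The count beyond both groups did not hold its size: it was 15, then 8 with a mean of at least 1 CPM, 9 with a prior count of 0.5, 2 without the variance trend, and 3 to 19 without single libraries. The cause was not tested. With library size alone 4649 genes were called, 82.0% of them higher against 60.8%. With the replicate number as a block 5238 genes were called, 601 over 2-fold, 9991 within 2-fold and 8 beyond both. Deviations of samples of the same number correlated at 0.01, -0.00 and 0.01 between healthy and extract-treated liver, where not every sample correlated best with its own number. They correlated at 0.08, 0.04 and 0.14 between healthy and CCl4 liver, and at -0.02, -0.04 and -0.14 between CCl4 and extract-treated liver. With 3 libraries a group these values cannot tell whether samples of the same number share more than that number. Of 164 named genes 9 lost their call in at least 1 setting (Acta2, Ahcy, Cbs, Bhmt, Arg1, Tfrc, Slc4a1, Hbb-bs and Ppbp), and none reversed. Genes of under 1 CPM rest on few reads, which limits the neutrophil, T cell and chemokine counts.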

Other observations

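Outside the gene lists 394 genes were higher and 54 lower by over 2-fold, and those named here were chosen after their values were seen. Egfr, the receptor through which growth factors drive hepatocyte division, was at 1342, 1108 and 847 CPM in healthy, 306, 187 and 215 CPM in extract-treated and 242, 314 and 227 CPM in CCl4 liver (-2.22 ± 0.20 from healthy, adjusted p = 1.1e-05 in limma). Serpina3k, a secreted protease inhibitor, stood at 8348, 7660.5 and 7015 CPM in healthy and 2143, 2252 and 1941 CPM in extract-treated liver (-1.86 ± 0.18). Nox4, an oxidase that makes hydrogen peroxide, was lower as well, at 46.8, 50 and 44.6 CPM in healthy against 16.1, 16.2 and 11.6 CPM (-1.70 ± 0.18). Among the higher genes Apoa4, an apolipoprotein of lipid export, was at 64.1, 39.95 and 49.1 CPM in healthy, 394, 307 and 382 CPM in extract-treated and 509.7, 644 and 621 CPM in CCl4 liver (2.84 ± 0.17). Golm1, a Golgi protein of injured hepatocytes, stood at 3.37, 4.16 and 3.08 CPM in healthy against 28.2, 24.7 and 19.6 CPM (2.75 ± 0.18), Gpx3, the plasma glutathione peroxidase, at 4.03, 4.93 and 4.55 CPM in healthy against 30.6, 30.6 and 36.02 CPM (2.84 ± 0.16), and Slc2a4, the insulin-sensitive glucose carrier, at 0.772, 0.288 and 0.258 CPM in healthy against 5.29, 4.01 and 3.45 CPM (3.31 ± 0.41).

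Gene families, grouped by symbol after the values were seen, also differed in how their totals compared. All 22 tested Mup genes were lower, 20 by over 2-fold, and the family's summed level was 13288 to 15555 CPM in healthy, 1893 to 2186 CPM in extract-treated and 1761 to 2319 CPM in CCl4 liver. Of 22 Serpina genes 12 were lower and 7 higher. Of 14 Cyp2c genes 8 were lower and 2 higher, yet the summed level was 5243 to 6076 CPM in healthy and 5867 to 6418 CPM in extract-treated liver, against 1197 to 2687 CPM in CCl4 liver. All 3 tested Cyp2b genes were higher, at a sum of 43.7 to 111 CPM in healthy and 222 to 491 CPM in extract-treated liver. Sums over a family are less exposed than single copies to reads shared between near-identical genes.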
